A study of Mus musculus with 24 samples.

Results

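The brown and beige adipocyte programme was followed through 35 genes in the fat of wild-type (WT) mice and mice lacking Prxl2a (KO). The genes were taken by symbol from a table of 19015 genes, and all 35 were found. They comprise regulators of brown fat cell fate, coactivators of mitochondrial genes, positional transcription factors, proteins of the mitochondrion and of lipid handling, membrane proteins and secreted factors. RNA was sequenced from dorsal brown adipose tissue (BAT), from inguinal adipose tissue (IAT, a subcutaneous white depot), and from liver and brain of females aged 12 weeks, all on normal feed and perfused with saline before dissection. Each of the 4 tissues has 3 WT and 3 KO libraries, from groups of 3 mice, which makes 24 libraries. The WT mice are labelled as wild type with no other allele. The sources used here name neither the strain nor how the deletion was made, nor whether it acts in all cells.

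Brown adipocytes burn fatty acids for heat through uncoupled respiration in densely packed mitochondria. Their identity is set by transcription factors such as EBF2 and PRDM16. Cold raises sympathetic input, and the resulting cyclic AMP signal is known to induce genes such as Dio2, Ppargc1a and Elovl3. Beige adipocytes are brown-like cells that arise inside white depots such as the inguinal one, and genes including Tbx1, Tmem26, Tnfrsf9 and Epsti1 have been used to mark them.

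Libraries held between 16147508 and 17323714 expected counts in IAT and between 12327459 and 12948149 in BAT. Prxl2a was at 289 to 443 CPM (counts scaled to library size) in WT IAT and at 8.24 to 21.0 CPM in KO IAT, and at 537 to 570 against 21.2 to 28.6 CPM in BAT, so the genotypes were separate in both depots. The adipocyte hormone gene Adipoq was at 1094 to 3182 CPM in IAT and 1591 to 1777 CPM in BAT, and the uncoupling protein gene Ucp1 at 2986 to 6218 CPM in BAT against 0 to 0.976 CPM in IAT. Several libraries stood apart in transcripts of other cell types. The summed level of 17 skeletal muscle markers was 1250 and 4313 CPM in WT IAT replicates 1 and 2 and 2842 CPM in WT BAT replicate 1, against 35.9 to 229 CPM in the other fat libraries. Lymphocyte markers (19 genes) summed to 2814 and 1486 CPM in KO IAT replicates 1 and 3, against 11.8 to 116 CPM elsewhere in fat. KO IAT replicate 1 also had the lowest summed level of 10 adipocyte markers, 11480 CPM against 22740 to 37010 CPM in the other fat libraries. Macrophage markers (12 genes) summed to 1466, 3933 and 5105 CPM in WT IAT, 1053 to 1627 CPM in KO IAT and 173 to 523 CPM in BAT. In bulk tissue, fewer cells of a type and less RNA per cell cannot be told apart.

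**Figure D1:**
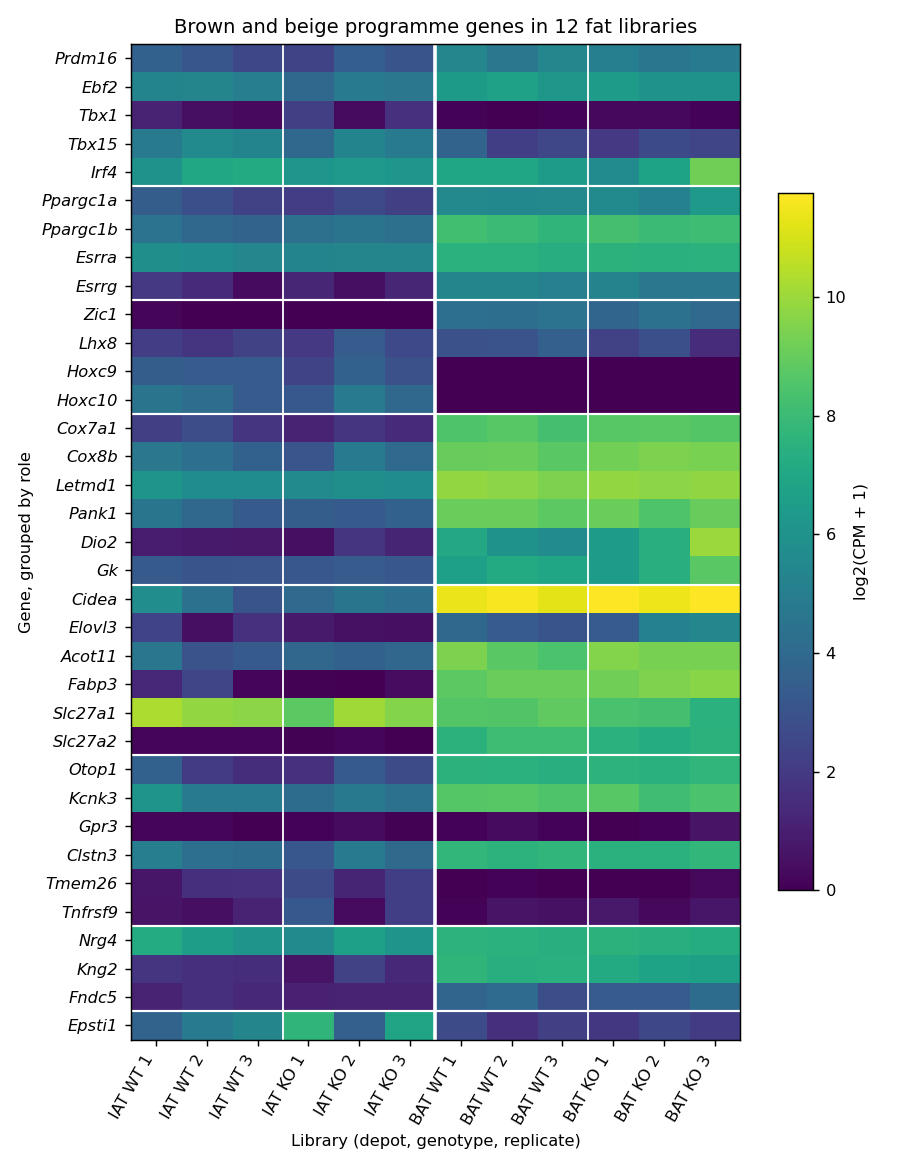
Level of each of the 35 genes (rows, grouped by role) in the 12 fat libraries (columns), as log2(CPM + 1) in colour. Cidea is the brightest row in all 6 BAT columns, Hoxc9 and Hoxc10 are at 0 there, and Dio2, Irf4 and Gk are brightest in KO BAT replicate 3.

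The first comparison set WT BAT against WT IAT. Of the 35 genes, 31 had enough counts to be tested, 24 were higher in BAT and 5 were lower by edgeR's quasi-likelihood test with Benjamini-Hochberg adjustment over all genes (adjusted p under 0.05). Over the 13751 genes tested, 28.2% were higher and 30.6% lower. The median log2 fold change of the tested members was 3.24, and that of all genes was -0.02. Of 8085 calls 3876 were higher. On the log2(TPM + 1) scale with limma, 1911 of 8486 calls were higher, with the same 24 and 5 members by count. Irf4 and Nrg4 did not pass, and Tbx1, Gpr3, Tmem26 and Tnfrsf9 had too few counts for the test. The choice of the genes as brown markers draws on what is known of these depots, so the direction is no independent evidence about the list.

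Among the fate regulators, Prdm16, a zinc finger protein that drives the brown fate, was higher in BAT (log2 fold change 2.17 ± 0.35 SE, adjusted p = 0.00253). It was at 41.8, 25.4 and 42.6 CPM in the 3 WT BAT libraries and at 11.5, 7.77 and 4.94 CPM in WT IAT. Ebf2, which opens brown fat enhancers, was 2.35 times as high (log2 1.23 ± 0.16), at 72.8 to 104 CPM against 31.4 to 39.3 CPM. Tbx15, a T-box factor of subcutaneous and brown fat, went the other way by -2.45 ± 0.48 on the log2 scale: 26.6, 46.4 and 38.5 CPM in IAT and 12.4, 3.47 and 4.67 CPM in BAT. Irf4, a partner of PGC-1alpha in thermogenic transcription, was at 86.5 to 125 CPM in BAT and 63.4 to 145 CPM in IAT, so the depots overlapped (log2 -0.04 ± 0.31). Its values in WT IAT, 63.4, 127 and 145 CPM, rose in the order of the macrophage markers. In KO IAT that order did not hold, with Irf4 at 71.6, 78.1 and 71.6 CPM beside macrophage sums of 1627, 1053 and 1334 CPM. The cell source of Irf4 was not tested. The regulators therefore did not share 1 direction.

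The PGC-1 coactivators and the estrogen-related receptors they work with drive mitochondrial genes, and all 4 were higher in BAT. The coactivator gene Ppargc1b rose to 287, 257 and 205 CPM from 21.6, 14.5 and 12.3 CPM, a log2 fold change of 3.94 ± 0.26. Ppargc1a was at 44.3 to 44.9 CPM in BAT and 3.92 to 10.04 CPM in IAT (log2 2.72 ± 0.32). The receptor genes Esrrg and Esrra rose by 4.56 ± 0.61 and 1.78 ± 0.14, Esrrg from 2.87, 1.70 and 0.268 CPM in IAT to 40.7, 41.1 and 33.3 CPM in BAT.

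The positional factors, which mark where in the body a fat depot lies, gave the most complete separation. Hoxc10 (chr15:102966796-102971898) and its neighbour Hoxc9 (chr15:102977032-102984444, both in RefSeq's GRCm38.p6 annotation) had no count in any of the 6 BAT libraries. In WT IAT, Hoxc9 was at 10.04, 9.83 and 9.66 CPM and Hoxc10 at 21.6, 17.7 and 9.55 CPM. Set against a floor of 3 counts over the 3 BAT libraries, Hoxc9 was at least 111-fold and Hoxc10 at least 182-fold higher in WT IAT. Zic1, a zinc finger factor of dorsal tissues, went the opposite way. It was at 18.6, 17.9 and 21.1 CPM in WT BAT and gave 2 counts in all over the WT IAT libraries, a ratio of 533 (exact 95% interval of the counts 147 to 4410). That interval, like the floor, covers counting error only. Lhx8, a LIM homeobox factor counted as a brown marker, was 2.52 times as high in BAT, at 6.51, 6.93 and 11.3 against 3.39, 2.47 and 3.86 CPM.

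The mitochondrial and metabolic genes were all higher in BAT. Cox7a1 and Cox8b encode tissue-restricted subunits of cytochrome c oxidase, the last complex of the respiratory chain. Cox7a1 was at 364, 416 and 306 CPM in WT BAT and 3.73, 6.18 and 2.36 CPM in WT IAT (log2 6.45 ± 0.39). Cox8b was at 525, 538 and 426 CPM against 24.05, 18.9 and 11.5 CPM (log2 4.76 ± 0.31). Letmd1, a mitochondrial inner membrane protein, rose by 3.84 ± 0.18, at 919, 839 and 694 against 66.2, 51.1 and 52.1 CPM. Pank1, which starts coenzyme A synthesis, rose by 5.05 ± 0.37, at 527, 559 and 441 against 22.4, 14.3 and 9.07 CPM. Dio2, the deiodinase that activates thyroid hormone, was at 135, 65.1 and 50.7 CPM in BAT and below 1 CPM in each WT IAT library (log2 6.66 ± 0.49). Gk, the glycerol kinase that lets brown fat reuse glycerol, rose by 3.91 ± 0.18, at 98.4, 146 and 117 against 8.95, 7.36 and 7.51 CPM.

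Of the 6 lipid genes, 5 were higher in BAT. Cidea, a lipid droplet protein, was the most abundant member by CPM at 2698, 3168 and 2431 CPM in WT BAT, against 52.6, 20.7 and 7.35 CPM in IAT (log2 6.67 ± 0.79). Fabp3, a fatty acid binding protein also found in muscle, was at 439, 560 and 557 CPM against 1.55, 4.43 and 0.161 CPM (log2 7.96 ± 0.91), and its highest IAT value came from replicate 2, which also had the most muscle transcripts. Slc27a2, a very long chain acyl-CoA synthetase, had the largest fitted increase, 10.64 ± 0.29, from 0.107 to 0.172 CPM in IAT to 187, 270 and 277 CPM in BAT. The WT IAT libraries gave only 3, 3 and 2 counts of it, so its size is less certain than that SE shows. Over its alternatives the log2 value ran from 7.02 to 11.03. Acot11, an acyl-CoA thioesterase induced by cold, rose by 5.17 ± 0.58, at 681, 422 and 339 against 23.5, 7.15 and 9.01 CPM. Elovl3, a fatty acid elongase, rose least (log2 2.20 ± 0.72, adjusted p = 0.0355), at 14.7, 9.24 and 7.40 CPM against 4.19, 0.412 and 2.15 CPM. That call was lost when WT IAT replicate 3 or any WT BAT library was left out (adjusted p 0.0583 to 0.0898). Slc27a1, a fatty acid transporter, was instead higher in IAT, at 1273, 907 and 830 CPM against 384, 378 and 474 CPM in BAT (log2 -1.30 ± 0.20).

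The proton channel gene Otop1 and the potassium channel gene Kcnk3 were 31.95 and 9.44 times as high in BAT. Otop1 was at 186, 179 and 163 CPM against 11.4, 3.14 and 1.88 CPM, and Kcnk3 at 398, 408 and 361 CPM against 66.1, 28.9 and 27.3 CPM. Clstn3, a calsyntenin gene whose locus has an adipocyte form, was 9.21 times as high, at 218, 193 and 212 against 31.6, 18.7 and 16.7 CPM. The table has 1 row for Clstn3 and does not separate its transcripts. Gpr3, a constitutively active receptor, stayed at or below 0.552 CPM in all 12 fat libraries. The beige markers Tmem26 and Tnfrsf9 were also scarce, at 0.632 to 2.15 CPM and 0.412 to 1.181 CPM in WT IAT and at most 0.533 CPM in WT BAT.

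Among secreted factors, Kng2, which encodes a kininogen, was 84.9 times as high in BAT (log2 6.41 ± 0.17), at 203, 165 and 172 against 2.47, 1.96 and 1.88 CPM. Its paralogue Kng1, with which reads could be shared, was at 0.403 TPM (a level scaled for transcript length) in WT BAT. Fndc5, the irisin precursor, was 7.50 times as high in BAT, at 13.1, 16.4 and 6.08 against 1.26, 1.96 and 1.45 CPM. Nrg4, a neuregulin released by brown fat, was at 166 to 190 CPM in BAT and 66.7 to 150 CPM in IAT. Its groups did not overlap, but the difference missed the threshold (log2 0.78 ± 0.29, adjusted p = 0.0519), and it passed without WT IAT replicate 1 (log2 1.15, adjusted p = 0.0019). It also passed with DESeq2 (adjusted p = 0.0183), with all 24 libraries in 1 fit (0.0117), with a replicate block (0.0311) and without both muscle-rich WT IAT libraries (0.0022), and its adjusted p was at most 0.155 over all its alternatives. Epsti1, an interferon-inducible gene, was higher in IAT, at 12.3, 28.7 and 39.7 against 5.44, 1.96 and 3.61 CPM (log2 -2.88 ± 0.53).

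**Figure D2:**
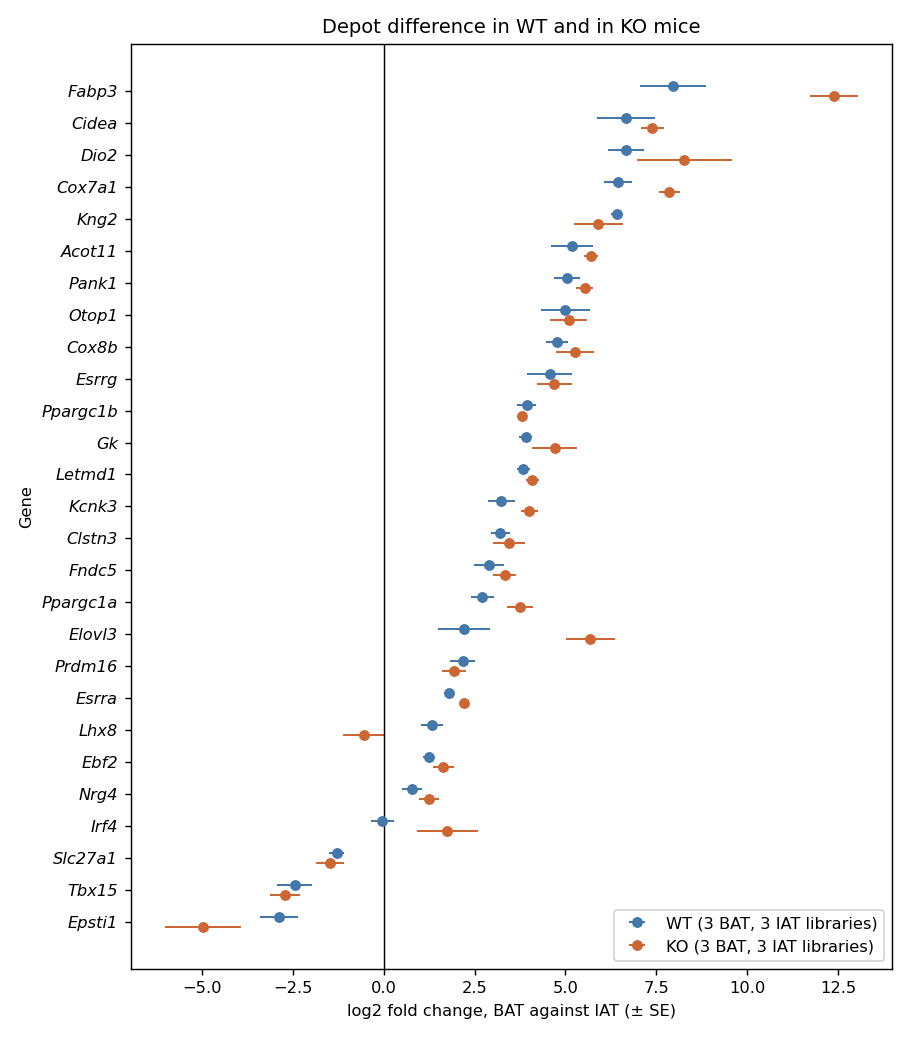
Log2 fold change of BAT against IAT, with its SE, for 27 genes tested in both genotypes and with more than 3 counts in each group, in WT (blue) and in KO (orange). Slc27a1, Tbx15 and Epsti1 lie to the left of 0 in both genotypes, Lhx8 and Irf4 lie on different sides in WT and KO, and the other pairs lie to the right.

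The same comparison in KO mice gave a like split. Of 32 tested genes, 24 were higher in BAT and 6 lower, against 22.4% and 29.7% of the 13658 genes tested. The median log2 fold change was 3.91 for the members and -0.13 for all genes. Of 7119 calls 3062 were higher, against 1474 of 8233 with limma on log2(TPM + 1), where 24 members were higher and 5 lower. Nrg4 passed here (log2 1.24 ± 0.27, adjusted p = 0.0090), whereas Lhx8 was at 3.89, 6.41 and 1.84 CPM in BAT and 2.88, 9.68 and 5.01 CPM in IAT and did not (log2 -0.54 ± 0.58). Irf4 again did not pass (log2 1.75 ± 0.84, adjusted p = 0.121), and its value turned on single libraries: the log2 difference was 2.26 without KO BAT replicate 1 (adjusted p = 0.0498) and 0.13 without KO BAT replicate 3 (adjusted p = 0.772). Irf4 also passed with DESeq2 (adjusted p = 0.0266) and with all 24 libraries in 1 fit (adjusted p = 0.00703), the lowest over its alternatives. Tmem26, tested only here, was lower in BAT, with 2 counts over the 3 libraries against 209 in IAT. Zic1 had no count in any KO IAT library and was at 13.2, 20.4 and 15.4 CPM in KO BAT, at least 313-fold higher against a floor of 3 counts. Hoxc9 and Hoxc10 were at least 79.2-fold and 174-fold higher in KO IAT.

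The share of the transcript pool taken by the members followed the depot. The 35 genes made up 2.09% to 2.48% of all TPM in WT BAT and 0.104% to 0.189% in WT IAT. In KO mice the shares were 2.37% to 2.54% and 0.0982% to 0.155%. By counts they took 0.726% to 1.01% of a BAT library and 0.131% to 0.209% of an IAT library. The scales differed most for Cox7a1 and Cox8b, whose TPM were 17.1 and 17.6 times their CPM, against 0.118 to 3.34 times for the other members with at least 1 CPM in WT BAT.

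Cox7a1 and Cox8b have widely expressed counterparts, Cox7a2 and Cox8a, that fill the same place in the complex. In WT BAT, Cox7a1 was at 5513, 7186 and 5881 TPM and Cox7a2 at 1579, 1893 and 1765 TPM, so Cox7a1 made up 76.9% to 79.1% of the pair. In WT IAT it was at 86.3, 133 and 44.9 TPM beside 456 to 589 TPM of Cox7a2, a share of 8.96% to 20.6%. The higher shares, 12.8% and 20.6%, were those of WT IAT replicates 1 and 2, the libraries rich in muscle transcripts. Cox8b made up 60.6% to 63.8% of its pair in WT BAT and 11.2% to 18.8% in WT IAT. Both shares separated the depots in every library. In KO mice the shares were 76.6% to 79.4% and 64.0% to 66.4% in BAT, and 6.90% to 8.01% and 10.6% to 19.5% in IAT. Cox7a2 and Cox8a were themselves higher in WT BAT, by 2.15 and 1.71 on the log2 scale.

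Across the 4 WT tissues, on the TPM scale, 16 of the 35 genes had their highest mean in BAT, 8 in IAT, 8 in brain and 3 in liver. For 14 genes every BAT library lay above every library of the other tissues, which held for 6.93% of the 15628 genes with at least 1 TPM in a tissue. Such a clear lead was held in IAT by 5 members (13.5% of all genes), in brain by 7 (52.7%) and in liver by 2 (7.31%). Cox8b, Cox7a1, Cidea and Fabp3 led in BAT at means of 8748, 6193, 3891 and 1730 TPM, and their next tissue was IAT for the first 3, at 406, 88.0 and 51.4 TPM. Several genes treated as brown markers were higher outside fat. Clstn3 was at 272 ± 22 TPM (SD, n = 3) in WT brain and 72.8 ± 5.6 TPM in WT BAT, and Dio2 at 39.2 ± 6.6 and 16.3 ± 9.0 TPM. Ppargc1a, Esrrg, Zic1, Fndc5 and Gpr3 also peaked in brain. Slc27a2 was at 732 ± 54 TPM in WT liver against 146 ± 29 TPM in WT BAT, and Kng2 at 451 ± 55 against 165 ± 19 TPM. Hoxc9, Hoxc10, Tbx15, Slc27a1 and Epsti1 led in IAT, and both Hoxc genes were listed at 0 in brain and liver.

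The spread within groups was narrower in BAT. Among genes with at least 5 CPM, the median coefficient of variation was 13.8% in WT BAT (28 genes) and 17.2% in KO BAT (26 genes), against 37.8% and 36.9% in WT and KO IAT (21 genes each). No test was made of this difference. Over all genes kept in fat, log2 CPM of replicates correlated at r from 0.960 to 0.986 in BAT and from 0.865 to 0.977 in IAT. A wider spread in IAT was therefore not particular to the members. In KO BAT the genes with the widest spread were Dio2 at 121%, Irf4 at 118% and Gk at 78.0%, all from 1 library. In WT IAT, Otop1 at 94.4% and Cidea at 86.4% varied most, both highest in replicate 1, and Hoxc9 at 1.98% varied least.

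The next comparison asked whether loss of Prxl2a changed the programme in BAT. None of the 29 tested genes passed by edgeR, in either direction, and the median log2 fold change was -0.00. In the same fit 0.389% of 12588 genes were higher and 0.151% lower. At an unadjusted p under 0.05 there were 9 members, 4 higher and 5 lower, among 2330 genes in all. DESeq2 called 1 member higher (Cox8b, adjusted p = 0.0205) and 1 lower (Kng2, adjusted p = 0.0088) among 467 genes, and limma on log2(TPM + 1) called none. Groups did not overlap for 4 members, against 25.6% of all genes tested.

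The 6 members with the smallest p did not pass. Kng2 was at 203, 165 and 172 CPM in WT and 146, 109.9 and 101 CPM in KO BAT (log2 -0.58 ± 0.15, adjusted p = 0.128). Cox8b was at 525, 538 and 426 CPM in WT and at 609.6, 698 and 667 CPM in KO (log2 0.43 ± 0.11, adjusted p = 0.130). For both genes the genotypes did not overlap. Fabp3 was at 439 to 560 CPM in WT and 584 to 813 CPM in KO (log2 0.46 ± 0.15, adjusted p = 0.187), and Slc27a2 at 187 to 277 and 156 to 185 CPM (log2 -0.47 ± 0.16, adjusted p = 0.190). Elovl3 was at 14.7, 9.24 and 7.40 CPM in WT and 9.55, 35.01 and 42.95 CPM in KO, so that KO replicates 2 and 3 lay above WT while replicate 1 lay inside it (log2 1.502 ± 0.51, adjusted p = 0.199). It passed without KO BAT replicate 1 (log2 1.92, adjusted p = 0.0438). Dio2 had the largest fitted change, 2.37 ± 0.87, with adjusted p = 0.217.

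KO BAT replicate 3 stood apart in Dio2, Irf4, Gk and Ppargc1a. Dio2 was at 1021 CPM there, against 88.8 and 172 CPM in the other KO libraries and 50.7 to 135 CPM in WT. Irf4 was at 592 CPM against 50.5 to 125 CPM in the other 5 BAT libraries. Gk stood at 431 CPM against 87.8 to 170.1 CPM, and Ppargc1a at 80.5 CPM against 35.3 to 46.6 CPM. Slc27a1 had its lowest value there, 183 CPM against 314 to 474 CPM. Elovl3 and Acot11, also known to be induced by cold, did not stand apart in this library. Elovl3 was at 42.95 CPM there and 35.01 CPM in KO replicate 2, and Acot11 at 649.6 CPM there and 769.8 CPM in KO replicate 1. Of the 29 tested members 9 were highest in this library, against 21.8% of genes with at least 10 counts in 3 BAT libraries. Ucp1 was also highest there at 6218 CPM, against 2986 to 4299 CPM in the others. Without this library the log2 fold changes of Dio2, Gk, Irf4 and Ppargc1a were 0.66, 0.12, -0.43 and -0.10, against 2.37, 0.95, 1.21 and 0.30 with it. The genes of this paragraph other than Dio2 were chosen after their values were seen.

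**Figure D3:**
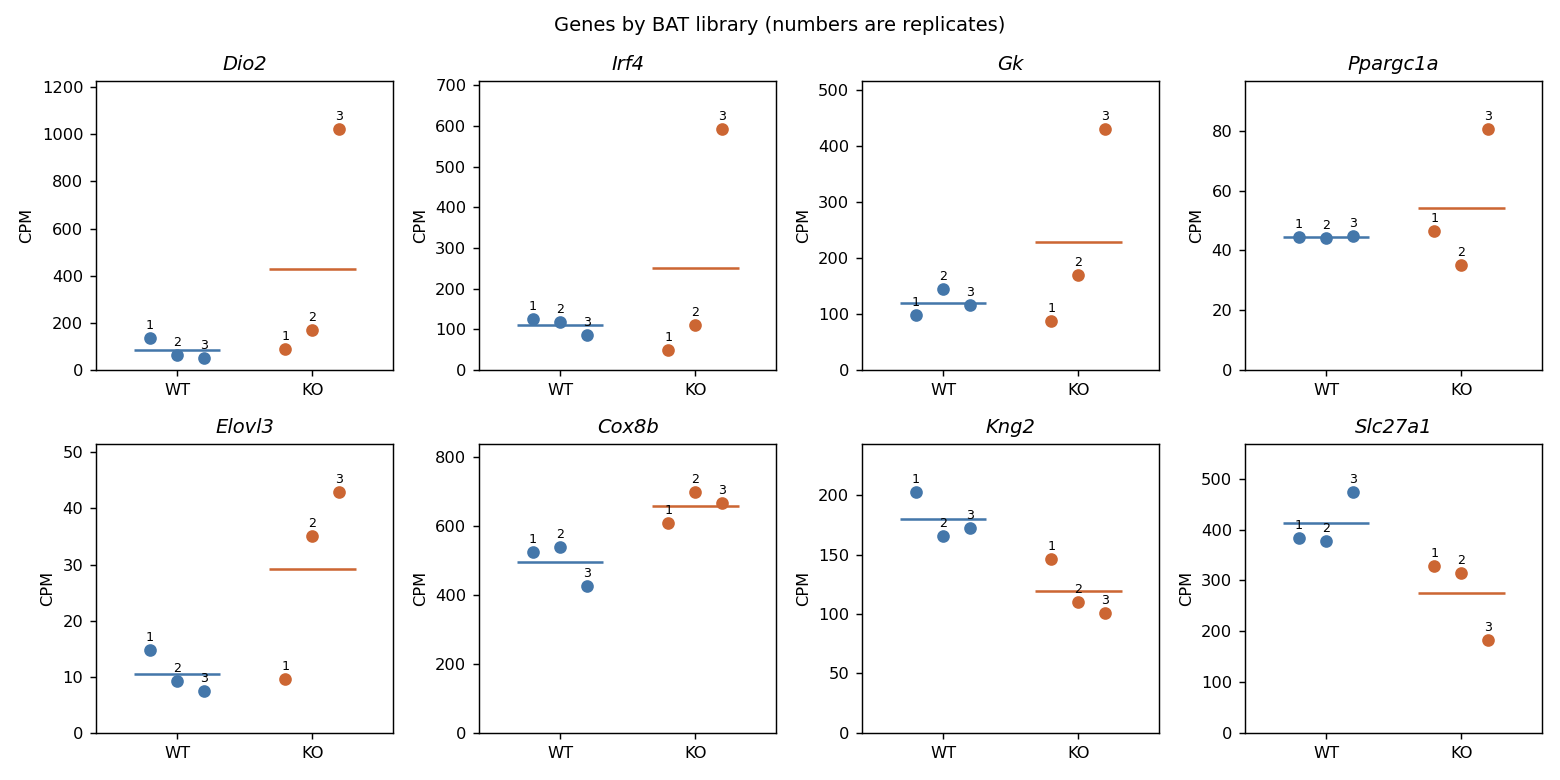
CPM of 8 genes in the 3 WT (blue) and 3 KO (orange) BAT libraries, each point a library with its replicate number and each bar the group mean. KO replicate 3 is the high point for Dio2, Irf4, Gk, Ppargc1a and Elovl3 and the low point for Kng2 and Slc27a1, while Cox8b is above WT in all 3 KO libraries.

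The sequences before the starts of 3 of these genes are shown as a description of their letters. They were searched for the cAMP response element TGACGTCA, through which cyclic AMP signals are known to act, and its half-site TGACG. Whether such a signal differed in KO BAT replicate 3 was not tested. Each line gives the 250 bases before the RefSeq start, in GRCm38.p6, read on the gene's strand, with any match in capitals. Dio2 lies at chr12:90739039-90739288 (minus strand), Ppargc1a at chr5:51567726-51567975 (minus strand) and Irf4 at chr13:30748983-30749232 (plus strand).
Dio2: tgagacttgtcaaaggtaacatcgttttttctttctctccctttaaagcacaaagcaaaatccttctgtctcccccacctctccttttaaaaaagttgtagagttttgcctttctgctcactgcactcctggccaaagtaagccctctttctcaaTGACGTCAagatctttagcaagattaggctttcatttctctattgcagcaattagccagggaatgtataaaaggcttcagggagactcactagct
Ppargc1a: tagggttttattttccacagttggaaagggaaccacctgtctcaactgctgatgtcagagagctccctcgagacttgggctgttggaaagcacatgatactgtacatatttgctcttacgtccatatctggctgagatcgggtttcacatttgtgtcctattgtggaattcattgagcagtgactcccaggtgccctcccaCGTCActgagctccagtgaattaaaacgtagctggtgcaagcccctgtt
Irf4: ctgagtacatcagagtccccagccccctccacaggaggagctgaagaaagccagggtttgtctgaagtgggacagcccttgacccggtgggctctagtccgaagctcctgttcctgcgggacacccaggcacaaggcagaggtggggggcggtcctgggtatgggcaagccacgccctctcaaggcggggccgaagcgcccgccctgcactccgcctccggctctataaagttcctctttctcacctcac
The full element was found in Dio2, at offset -95 from the start, and the half-site on the opposite strand in Ppargc1a, at offset -49. Irf4 had no match. Gk, whose sequence is not shown, had the half-site at offset -4.

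Promoters of 27 members were in the RefSeq table, and both strands were searched over 300 bases, from 250 before to 50 after the start. The full element was in 2 of them (Dio2 and Clstn3) and in 2.03% of the 27025 genes of the table. The half-site, which the full element contains, was in 7, namely Clstn3, Dio2, Fabp3, Gk, Gpr3, Ppargc1a and Tbx1. That is 25.9% of the members, against 23.0% of all genes. The estrogen-related receptor motif TNAAGGTCA was in none of the 27 and in 1.43% of all genes. A match describes letters only. The promoters of Ebf2, Tbx15, Ppargc1b, Hoxc9, Hoxc10, Cidea, Elovl3 and Kcnk3 were not searched.

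**Figure D4:**
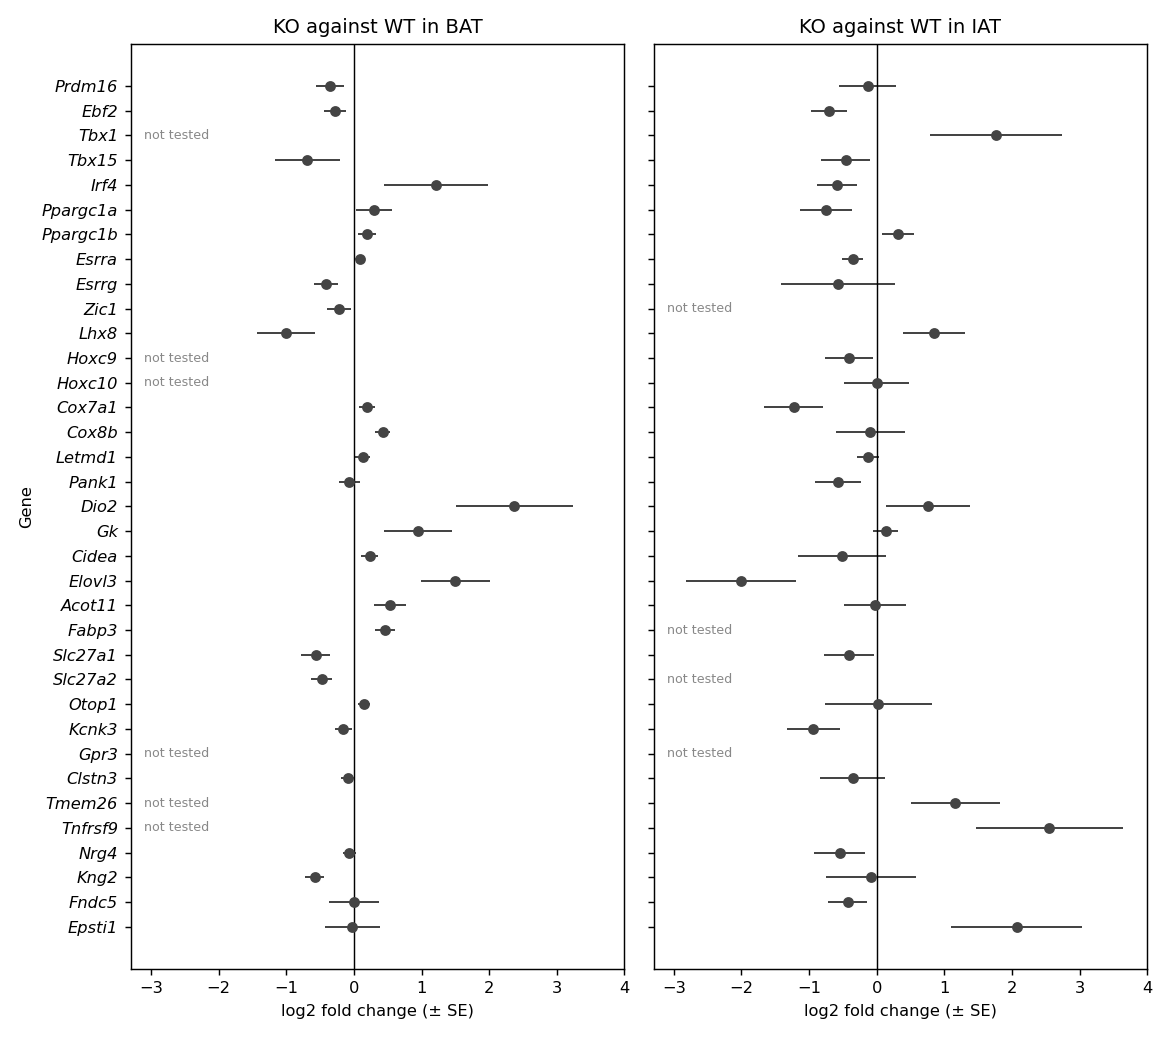
Log2 fold change of KO against WT with its SE for each gene, in BAT (left) and in IAT (right). The points in BAT lie near 0 outside Dio2, Elovl3, Irf4, Gk and Lhx8. The bars are wider in IAT, and none of the genes passed the test in either depot.

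In IAT no member passed the test for KO against WT. Of 31 tested genes 0 were called by edgeR, as were 0% of all 14097 genes in each direction. At an unadjusted p under 0.05 there were 3 members, all lower in KO, among 2226 genes. DESeq2 called 987 genes but none of the members, and limma on log2(TPM + 1) called no gene. The median log2 fold change of the members was -0.35 and that of all genes 0.02. Of the tested members 21 were below 0 and 10 above, whereas 51.7% of all genes were above 0. KO IAT replicate 1, low in adipocyte markers, held the lowest value for 17 of the 31 members, against 35% of genes with at least 10 counts in 3 IAT libraries. WT IAT replicate 1 held the highest value for 14 of them, against 16.4% of genes.

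Among the 6 smallest p-values were Cox7a1 (log2 -1.23 ± 0.44, adjusted p = 0.282), Ebf2 (-0.70 ± 0.26, adjusted p = 0.289) and Elovl3 (-2.00 ± 0.81, adjusted p = 0.308). Elovl3 was at 4.19, 0.412 and 2.15 CPM in WT and 0.780, 0.450 and 0.417 CPM in KO, so the genotypes overlapped, and without WT replicate 1 its log2 fold change was -1.185. Cox7a1 was at 3.73, 6.18 and 2.36 CPM in WT and 1.22, 2.36 and 1.67 CPM in KO. Its high values came from the 2 WT libraries rich in muscle transcripts, and without both its log2 fold change was -0.46. Ebf2 was at 38.7, 39.3 and 31.4 CPM in WT and 14.3, 29.0 and 24.04 CPM in KO. The genotypes did not overlap, and the lowest value was in KO replicate 1. Kcnk3 was at 66.1, 28.9 and 27.3 CPM against 16.8, 26.3 and 20.8 CPM (log2 -0.94 ± 0.39, adjusted p = 0.318), and without WT replicate 1 its log2 fold change was -0.39. Esrra was at 42.4 to 57.5 CPM in WT and 38.4 to 39.6 CPM in KO (log2 -0.36 ± 0.15, adjusted p = 0.324).

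The beige markers had their highest IAT values in the lymphocyte-rich libraries. Tnfrsf9, a receptor of activated T cells, was at 8.39 and 3.55 CPM in KO IAT replicates 1 and 3 and at 0.281 to 1.181 CPM in the other 4 IAT libraries (log2 2.55 ± 1.08, adjusted p = 0.323). Epsti1 was at 208 and 114 CPM in those 2 libraries and at 11.3 to 39.7 CPM in the others (log2 2.07 ± 0.97, adjusted p = 0.347). Tbx1 was at 3.66 and 2.19 CPM against 0.215 to 1.21 CPM, and Tmem26 at 5.71 and 3.60 CPM against 0.632 to 2.15 CPM. For all 4 genes the 2 highest IAT values were those of KO replicates 1 and 3. Without both libraries the log2 fold changes of Tnfrsf9 and Epsti1 turned to -1.30 and -1.25. Without KO replicate 2 alone they were 3.09 and 2.596 and both passed, with adjusted p = 0.0281 and 0.0282. The B cell marker Cd79a was at 207 and 110 CPM in the same 2 libraries and at 0.056 to 0.720 CPM in the other 4. The part of lymphocyte transcripts in these values was not tested beyond leaving out the libraries.

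**Figure D5:**
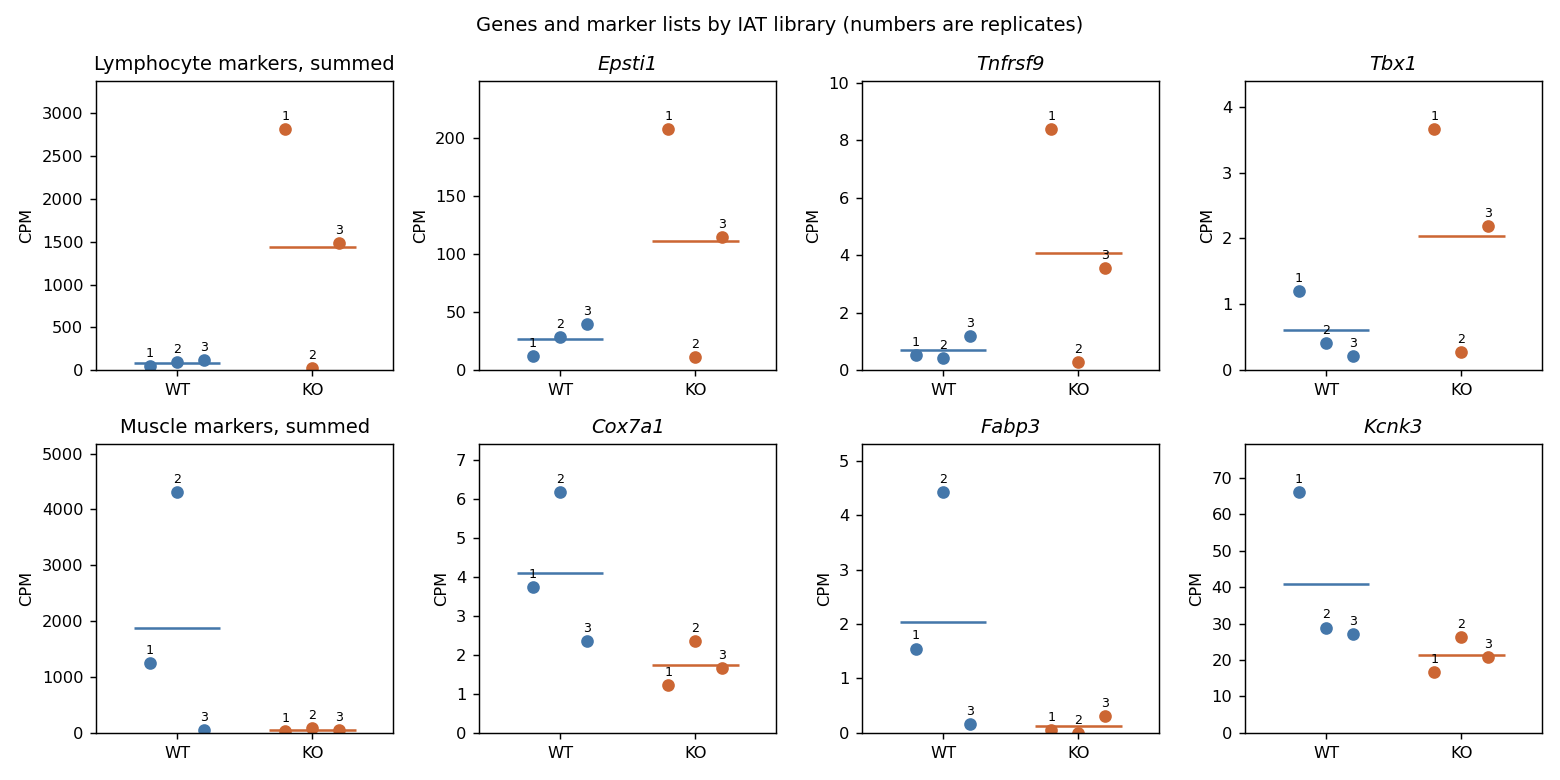
CPM of 6 genes and the summed CPM of lymphocyte and muscle markers in the 3 WT (blue) and 3 KO (orange) IAT libraries, each point a library with its replicate number and each bar the group mean. Epsti1, Tnfrsf9 and Tbx1 are highest in KO replicates 1 and 3, as are lymphocyte markers, and Cox7a1 and Fabp3 are highest in WT replicate 2, as are muscle markers.

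Other members were too scarce in IAT for the test or varied with single libraries. Fabp3 gave 27, 86 and 3 counts in WT IAT and 1, 0 and 6 in KO, and WT replicate 2 again had both the most Fabp3 and the most muscle transcripts. Cidea was at 52.6, 20.7 and 7.35 CPM in WT and 15.4, 23.0 and 18.6 CPM in KO, so the KO values lay inside the WT range. Otop1 was at 1.88 to 11.4 CPM in WT and 2.15 to 9.17 CPM in KO, again inside the WT range. Clstn3 was at 31.6, 18.7 and 16.7 CPM in WT and 8.14, 29.0 and 15.7 CPM in KO, so that 2 KO libraries lay below WT and 1 inside it. Dio2 stayed at 0.390 to 2.48 CPM in all 6 IAT libraries.

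Whether the KO change differed between depots was tested as 1 contrast over the 12 fat libraries. None of 34 tested members passed by edgeR, nor did any of the 14271 genes, 0% in each direction. At an unadjusted p under 0.05 there were 5 members, and DESeq2 called 1, Elovl3. Its KO change was 1.502 in BAT and -2.00 in IAT, a difference of 3.48 ± 1.03 on the log2 scale (adjusted p = 0.358). Fabp3 differed by 4.43 ± 1.22, Cox7a1 by 1.41 ± 0.43, Lhx8 by -1.87 ± 0.70 and Esrra by 0.43 ± 0.16, with adjusted p of 0.358, 0.358, 0.387 and 0.389. The Fabp3 difference was 0.83 without both muscle-rich WT IAT libraries and 8.30 without both lymphocyte-rich KO IAT libraries, the lowest and highest over its alternatives. Each of these fits leaves 1 library in an IAT group. The KO IAT library left for 8.30, replicate 2, had 0 Fabp3 counts, so that value is no measured size. The Cox7a1 difference was 0.62 without both muscle-rich libraries and 1.71 without KO IAT replicate 2, where it passed (adjusted p = 0.0337). Over their alternatives the differences ran from 1.95 to 3.985 for Elovl3, from -2.61 to -1.27 for Lhx8 and from 0.18 to 0.54 for Esrra.

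Related gene lists gave the setting. Of 24 other brown fat genes 22 were higher in WT BAT than in WT IAT (median log2 fold change 2.86), among them Plin5 (5.12), Acaa2 (4.70) and Pdk4 (4.31). Of 14 tested white fat markers 13 were lower, such as Slc7a10 (-2.94) and Sncg (-3.90), and Hoxa5, a positional factor, was higher (3.17). Of 16 subunits of cytochrome c oxidase, the members Cox7a1 and Cox8b among them, 15 were higher (median 2.42). Cox6a2, a muscle form, was not called (-0.09). Of 15 partners of PGC-1 and the estrogen-related receptors 9 were higher, Perm1 most among the 4 with the smallest p (4.32). Of 15 tested partners of PRDM16 and EBF2 7 were higher and 1 lower.

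In BAT, KO against WT, 1 gene of these lists passed. Ebf3, a paralogue of Ebf2, was at 80.9, 85.8 and 79.6 CPM in WT and at 121, 119 and 127 CPM in KO (log2 0.59 ± 0.07, adjusted p = 0.0231). The size stayed at 0.57 to 0.62 when each library was left out, but of these 6 fits the call was kept in 1, without KO replicate 1 (adjusted p = 0.04325), and missed in the other 5 (adjusted p 0.0621 to 0.130). Ebf3 also missed the threshold with all 24 libraries in 1 fit (adjusted p = 0.664), with limma on log2(TPM + 1) (0.0622) and with a replicate block (0.108). Cebpb, a C/EBP factor that works with PRDM16, was at 64.5, 51.2 and 32.1 CPM in WT and 80.6, 226 and 221 CPM in KO, which did not overlap but missed the threshold (log2 1.86 ± 0.41, adjusted p = 0.0968). Cebpb passed with DESeq2 (adjusted p = 0.0196) and without KO replicate 1 (log2 2.20, adjusted p = 0.0334). All 15 tested subunits of cytochrome c oxidase, the members Cox7a1 and Cox8b among them, had log2 fold changes above 0 (median 0.21), with none passing. Over the 12588 genes tested in BAT, 49% were above 0. The 15 tested muscle markers were all below 0 in KO BAT (median -3.04, none passing), with the highest summed level in WT replicate 1. In IAT none of the 22 tested other brown genes passed, and 20 were below 0 (median -0.39), Adrb3 with the smallest p (log2 -1.06 ± 0.31, adjusted p = 0.243). Over the 14097 genes tested in IAT, 51.7% were above 0. None of the 14 white fat markers passed there.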

How the data were processed

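The deposited table holds expected counts and TPM of 19015 genes in 24 libraries, as its columns are named by the authors. The submitters' processing notes list the build GRCm38.p6 and, with no order or role, DESeq2 1.4.5, RSEM 1.3.1 and Bowtie2 2.3.4.3. Another 48 columns of per-sample values were not used. Replicate origin beyond groups of 3 mice is not stated, so p-values measure the spread between these libraries.

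Expected counts were rounded and tested with edgeR 4.0.16 (R 4.3.3) by quasi-likelihood F-tests after TMM scaling and filterByExpr, 6 libraries a fit (12 for the difference between depots), with Benjamini-Hochberg adjustment over all genes and a threshold of 0.05. The SE is the log2 fold change divided by the root of F. CPM were scaled over the 12 fat libraries. TPM served for levels between genes and tissues. Alternatives were RLE scaling, no filter, 1 CPM in 3 libraries, DESeq2 1.42.0, 1 fit over 24 libraries, limma 3.58.1 on log2(TPM + 1), a replicate block and leaving out libraries. Leaving out both muscle-rich WT IAT libraries, or both lymphocyte-rich KO IAT libraries, leaves 1 library in that group. Scripts were tested on simulated data. No replicate pair differed by less than sampling noise, but that check cannot show whether a library lies between others. KO IAT replicate 3 had r = 0.977 with replicate 1 and 0.933 with replicate 2, against 0.865 between replicates 1 and 2. It held the highest value for 3.24% and the lowest for 4.43% of genes with at least 10 counts in 3 IAT libraries. The reason was not tested.

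Members and gene lists were chosen with earlier results of these data known. All tested members were given in the depot comparison, and library values, planned for up to 14 members past a log2 change of 3 and those higher in IAT, are given for more. For each KO comparison, called members and the 6 with the smallest p were named, and up to 4 from each other list.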

Additional observations from a re-analysis of the deposited data

How the results depend on the processing

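In the depot comparisons the counts of higher and lower members kept within 1.5 times of the values given under all alternatives run. Irf4 in WT (-0.415 to 0.195) and Lhx8 in KO (-1.258 to 0.164), neither of which passed, were the members whose depot value changed sign under any of them. For KO against WT, where no member passed, the value changed sign under at least 1 alternative for 7 of 29 members in BAT, 20 of 31 in IAT and 23 of 34 in the difference between depots. On the log2(TPM + 1) scale the median of all genes moved to -0.378 in WT and -0.618 in KO (from -0.024 and -0.131). For KO against WT in BAT, DESeq2 called 1 member higher and 1 lower, and leaving out 1 library gave 0 to 1 higher and 0 lower. In IAT the fit over 24 libraries called 2 higher (Tnfrsf9 and Epsti1) and 3 lower (Cox7a1, Fabp3 and Kcnk3), and leaving out 1 library gave 0 to 2 higher and 0 lower. For the difference between depots, DESeq2 called 1 higher, and leaving out 1 library gave 0 to 1 higher and 0 to 1 lower, the calls without KO IAT replicate 2 being Cox7a1 and Epsti1. Over all genes, calls in BAT numbered 68, against 467 with DESeq2, 173 in the 24-library fit, 29 with limma and 2 to 94 without 1 library. In IAT they numbered 0, against 987 with DESeq2, 2573 in the 24-library fit, 192 without WT replicate 1 and 1760 without KO replicate 2. For the difference between depots 0 became 177, 23 and, without KO IAT replicate 2, 1557. The cause of these changes was not tested. Lhx8 lost its call in WT in the 24-library fit and without both muscle-rich libraries. Slc27a1 lost its call in KO without any 1 KO BAT library (adjusted p 0.0546 to 0.0748). Nrg4 passed in WT under 5 alternatives, and Irf4 passed in KO with DESeq2, in the 24-library fit and without KO BAT replicate 1.

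Between BAT and IAT of the same genotype, same-numbered libraries did not deviate together (r from -0.353 to 0.287). WT BAT replicate 1 and WT IAT replicate 2, both rich in muscle transcripts, reached 0.525. With 3 libraries a group this cannot show whether the replicate numbers pair the samples, so no pairing was assumed. With the replicate block the depot comparison in WT had 25 members higher and 5 lower and that in KO 24 and 6, and the KO comparisons had 0, with 1 gene called in BAT against 68, and Ebf3 missed (adjusted p = 0.108). Gpr3 had too few counts in fat to be tested in any comparison.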

Other observations

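The members were also measured in brain and liver of KO mice, which no comparison above used. Dio2 was at 41.6 to 78.1 TPM in KO brain and 31.7 to 44.4 TPM in WT brain, and Clstn3 at 285 to 293 against 247 to 285 TPM. In liver, Slc27a2 was at 714 to 803 TPM in KO and 672 to 775 TPM in WT, and Kng2 at 391 to 431 against 410.0 to 513 TPM. Zic1 ranged from 6.31 to 33.8 TPM within WT brain and from 6.19 to 41.8 TPM within KO brain. These values overlapped between genotypes or were not tested.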
